A study of Mus musculus with 8 samples.

Results

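Desmosome genes and corneodesmosin were followed in mouse ear skin treated with MC903. The 10 members were the desmogleins Dsg1a, Dsg1b and Dsg3, the desmocollins Dsc1, Dsc2 and Dsc3, the plakin Dsp, the armadillo proteins Jup and Pkp1, and the corneodesmosome gene Cdsn. They were chosen by name, and all 10 were found by Ensembl identifier among the 41388 genes counted. Bulk ear skin was taken from adult wild-type C57Bl/6 mice in 2 groups, with 4 mice and 4 RNA libraries in each. The MC903 group received 1 nmol of calcipotriol, a vitamin D analog also called MC903, on the skin daily for 12 days. The vehicle group received ethanol. No transgene or mutation was listed for either group.

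Desmosomes are the junctions that hold keratinocytes together and anchor their keratin filaments. Desmogleins and desmocollins are cadherins that span the membrane and bind those of the neighbouring cell. Inside the cell, plakoglobin (Jup) and plakophilins bind the cadherin tails, and desmoplakin (Dsp) ties them to keratin. In the upper epidermis Dsg1 and Dsc1 prevail, and in the lower layers Dsg3 and Dsc3. As cells cornify, corneodesmosin (Cdsn) is built into the junction, which proteases later cut so that the outermost cells are shed.

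Of the 10 members, 6 were higher in MC903 skin and none lower at an adjusted p under 0.05 (edgeR quasi-likelihood test with Benjamini-Hochberg adjustment over all genes tested). Of the 16105 genes tested, 21.3% were called higher and 20.2% lower by the same rule, or 41.5% in either direction. The members called were Dsc2, Dsc1, Cdsn, Dsg1b, Dsg3 and Pkp1, with log2 fold changes of 2.87, 1.71, 1.68, 1.48, 1.43 and 0.67. The MC903 and vehicle libraries of these 6 did not overlap, against 19.8% of genes tested that did not overlap with MC903 higher and 38.7% in either direction. Jup, Dsp, Dsc3 and Dsg1a did not pass the test. The median log2 fold change was 1.05 over the 10 members and -0.03 over all genes tested. All 10 passed the filter on low counts, and the fewest reads behind a member in any library were 82, for Dsc2 in vehicle replicate 1.

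**Figure D1:**
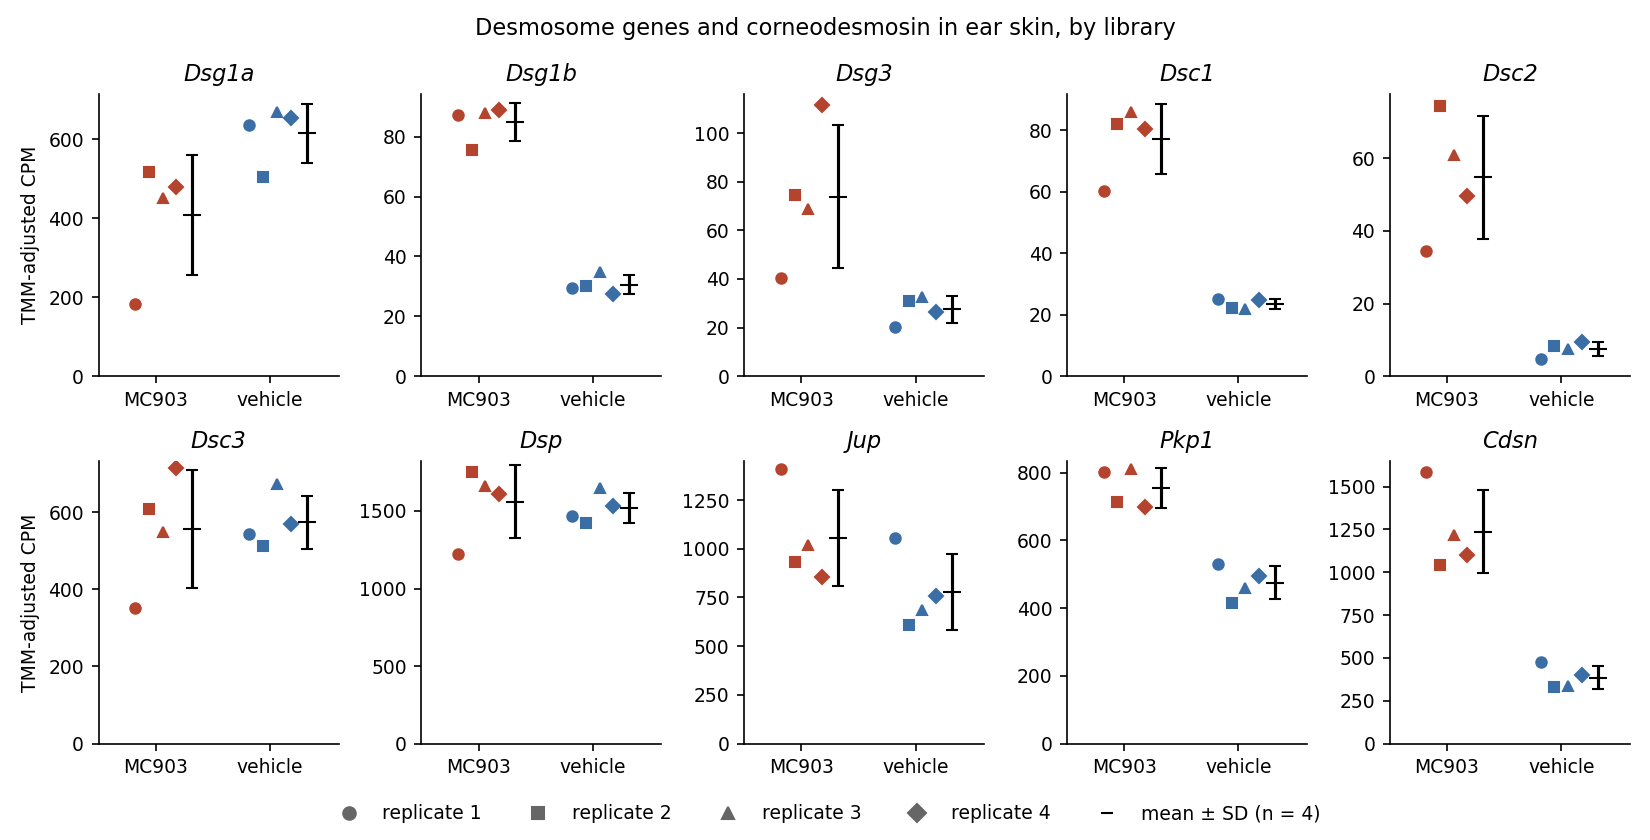
Levels of the 10 members in each library, as CPM (counts scaled to a common library total with TMM factors) on the vertical axis. Points are single libraries with a marker shape per replicate number, and bars give mean ± SD (n = 4). Dsg1b, Dsg3, Dsc1, Dsc2, Pkp1 and Cdsn have all MC903 points above all vehicle points, and Dsc2 in MC903 skin lies between 34.5 and 74.3 CPM.

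Library totals ran from 12310466 to 16837221 counts. The vitamin D receptor target Cyp24a1 averaged 3830 ± 403 CPM in MC903 skin and 18.8 ± 1.73 CPM in vehicle skin (SD, n = 4 each). A pair of libraries stood apart. In vehicle replicate 2, the 6 salivary gland markers took 28.5% of the counts, against 0.0205% to 0.0514% in the other 7 libraries. In MC903 replicate 1, genes in the lowest quartile of transcript GC content (up to 44.8%) had a median deviation from the group mean of -0.28 on the log2 scale. Genes in the highest quartile (54.1% or more) deviated there by 0.17, and the other 7 libraries had medians between -0.12 and 0.15 in these classes. MC903 replicate 1 was the lowest of its group for Dsg1a, Dsg3, Dsc1, Dsc2, Dsc3 and Dsp and the highest for Jup and Cdsn. The cadherin members' longest coding transcripts had a GC content of 41.4% to 45.5%, against 51.8% for Dsp, 53.8% for Pkp1, 57.4% for Cdsn and 58.8% for Jup. The same 6 members were called higher when both libraries were left out, a setting added once the data had been seen.

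All cadherin members lay in 1 cluster of 9 genes on chromosome 18 (mm10), which spanned 644 kb in the order Dsc3, Dsc2, Dsc1, Dsg1c, Dsg1a, Dsg1b, Dsg4, Dsg3 and Dsg2. The desmocollins were annotated on the minus strand and the desmogleins on the plus strand. Called and uncalled genes stood side by side in it: Dsc2 and Dsc1 rose, their neighbour Dsc3 was not called, and Dsg1c and Dsg1b rose and flanked Dsg1a, which was not called.

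The mouse has 3 Dsg1 genes where humans have 1, and their products belong to the upper epidermal layers. Dsg1a (ENSMUSG00000069441, chr18:20310811-20343350) was at 184, 518, 453 and 479 CPM in MC903 libraries 1 to 4 and at 636, 506, 669 and 655 CPM in vehicle libraries 1 to 4. MC903 replicate 1 was far below the rest of its group, and MC903 replicate 2 stood above vehicle replicate 2, so the groups overlapped. The log2 fold change was -0.59 ± 0.28 (SE, 95% interval -1.21 to 0.02), which missed the threshold (adjusted p = 0.109, edgeR). Without MC903 replicate 1 it was -0.35 (adjusted p = 0.0943, edgeR). With each library's GC trend removed it was -0.61 and called (adjusted p = 0.0423), and with MC903 replicate 1 and vehicle replicate 2 both left out it was -0.44 and called (adjusted p = 0.0272). Both settings were chosen after seeing the data, and over the alternatives that fit Dsg1a by itself the adjusted p ran from 0.0272 to 0.192.

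Dsg1b (ENSMUSG00000061928, chr18:20376729-20410196) was higher in MC903 skin. It was at 87.4, 75.6, 87.96 and 88.9 CPM in MC903 libraries 1 to 4 and at 29.6, 30.1, 34.95 and 27.5 CPM in vehicle libraries 1 to 4. The lowest MC903 library was above the highest vehicle library, and the spread within each group was small. Its log2 fold change was 1.48 ± 0.12 (adjusted p = 5.22e-06, edgeR). Dsg1c, the other copy and not a member, averaged 10.1 ± 2.51 CPM in MC903 skin and 1.95 ± 0.67 CPM in vehicle skin (SD, n = 4 each), a log2 fold change of 2.35 ± 0.27 (adjusted p = 6.21e-05, edgeR).

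Per length, as RPKM (TMM-adjusted CPM divided by the length of the gene model in kilobases), Dsg1a remained the most abundant of the 3 in every library. Its share of their summed RPKM was 57.7%, 80.5%, 76.3% and 77.05% in MC903 libraries 1 to 4 and 93.2%, 91.8%, 92.8% and 93.9% in vehicle libraries 1 to 4. The share of Dsg1b averaged 24.5% ± 10.1 in MC903 skin and 6.66% ± 0.94 in vehicle skin (SD, n = 4 each). The lowest MC903 share of Dsg1b was 16.8% and the highest vehicle share 7.83%. These shares were looked at after the values were seen and were not tested. With the counts of Dsg1a and Dsg1b summed into 1 gene, the log2 fold change was -0.39 ± 0.24 (95% interval -0.91 to 0.13, adjusted p = 0.206, edgeR).

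The 3 copies are alike in sequence, which bears on how reads were assigned. Of all 50-base windows in the longest coding transcript, 31.6% in Dsg1a and 45.5% in Dsg1b occurred exactly in a transcript of the other gene (GENCODE M21). How reads that match both were counted was not given in the sources used here, so the level of each copy is uncertain. Among the other members the share of windows found in any other gene was 4.72% for Dsp, 0.357% for Dsg3 and 0 for the remaining 6. No other counted gene overlapped the exons of a member.

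Dsg3 (ENSMUSG00000056632, chr18:20510304-20541310), the desmoglein of the lower layers and the antigen of pemphigus vulgaris in humans, was higher. It was at 40.3, 74.6, 68.9 and 112 CPM in MC903 libraries 1 to 4 and at 20.1, 30.8, 32.6 and 26.4 CPM in vehicle libraries 1 to 4. The groups did not overlap, but MC903 replicate 1 was only a little above the highest vehicle library. The log2 fold change was 1.43 ± 0.27 (adjusted p = 0.0015, edgeR), and it ran from 1.16 to 1.64 when single libraries were left out. Dsg2, the broadly expressed desmoglein, was lower, at 21.3 ± 5.58 CPM in MC903 skin and 33.99 ± 3.83 CPM in vehicle skin (SD, n = 4 each; log2 fold change -0.68 ± 0.18, adjusted p = 0.0118, edgeR). Dsg4, which belongs to hair and upper epidermis, was below the filter, at 0.0810 to 0.269 CPM in MC903 skin and 0 to 0.748 CPM in vehicle skin.

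The balance between Dsg1a plus Dsg1b, of the upper layers, and Dsg3, of the lower layers, differed between the groups. Dsg1c was not part of this ratio, and the ratio of Dsc1 to Dsc3, given below, differed in the other direction. The log2 ratio of Dsg1a plus Dsg1b counts to Dsg3 counts was 2.75, 2.99, 2.97 and 2.34 in MC903 libraries 1 to 4 and 5.05, 4.12, 4.43 and 4.69 in vehicle libraries 1 to 4. Every MC903 library was below every vehicle library. The mean difference was -1.81 (two-sided exact permutation test, p = 0.0286, adjusted p = 0.04 over 7 ratios), and 0.0286 is the smallest p that 4 against 4 libraries can give. Over all 6 desmogleins the summed RPKM was 116 ± 33.2 in MC903 skin and 127 ± 13.1 in vehicle skin (SD, n = 4 each), and the groups overlapped.

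**Figure D2:**
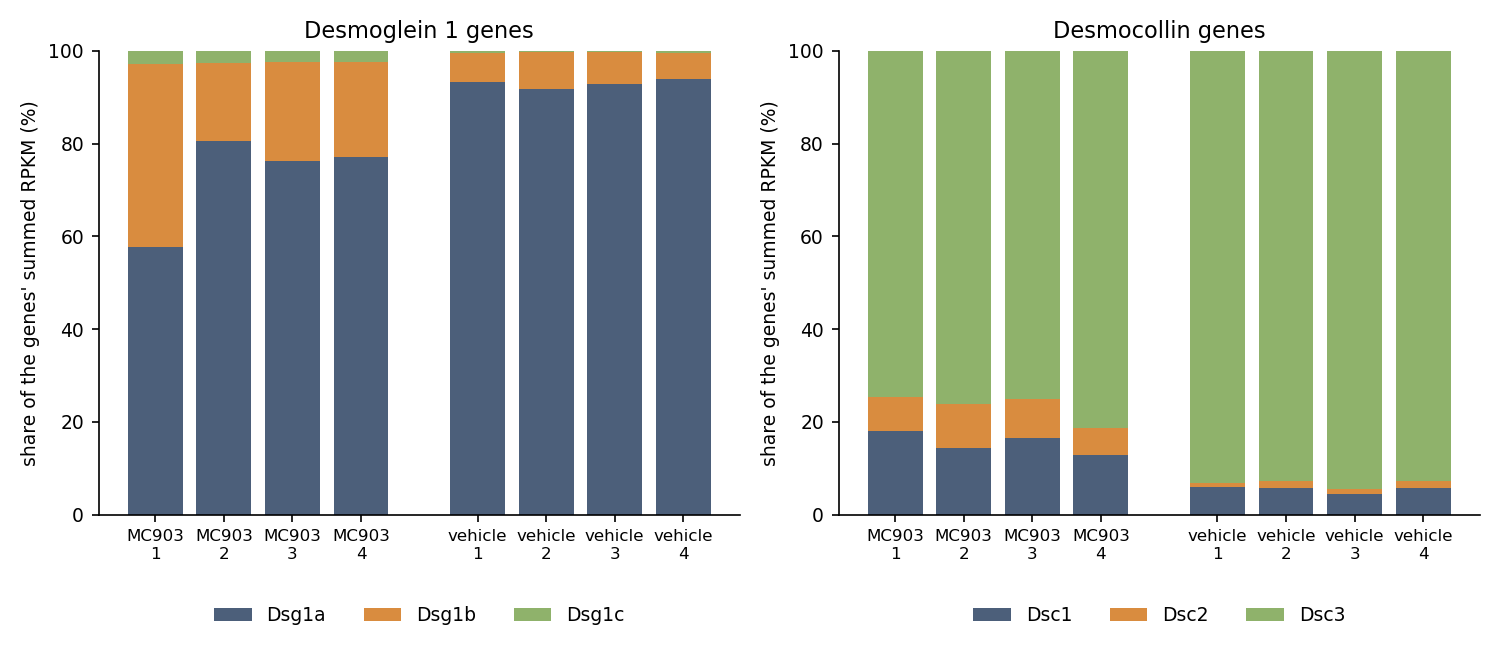
Share (%) of the summed RPKM of the 3 Dsg1 genes (left) and of the 3 desmocollins (right) in each library, MC903 libraries first. Each bar is 1 library, and colours are genes. Dsg1a holds 57.7% to 80.5% of its family in MC903 libraries and 91.8% to 93.9% in vehicle libraries, and Dsc3 holds 74.6% to 81.4% in MC903 libraries and 92.8% to 94.6% in vehicle libraries.

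Among the desmocollins, both less abundant genes rose and the abundant one was not called. Dsc1 (ENSMUSG00000044322, chr18:20084703-20114773), the desmocollin of the upper layers, was at 60.2, 82.00, 85.8 and 80.5 CPM in MC903 libraries 1 to 4 and at 25.05, 22.2, 21.95 and 24.8 CPM in vehicle libraries 1 to 4. The vehicle libraries lay close together, and all MC903 libraries were well above them. The log2 fold change was 1.71 ± 0.14 (adjusted p = 4.6e-06, edgeR).

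Dsc2 (ENSMUSG00000024331, chr18:20030633-20059554), found in most tissues with desmosomes, had the largest fold change of the 10. It was at 34.5, 74.3, 60.9 and 49.6 CPM in MC903 libraries 1 to 4 and at 4.82, 8.21, 7.53 and 9.48 CPM in vehicle libraries 1 to 4. The lowest MC903 library was above every vehicle library by far more than the spread within vehicle skin. This gave a log2 fold change of 2.87 ± 0.26 (adjusted p = 1.17e-05, edgeR), or 7.31-fold, above 98.3% of all genes tested.

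Dsc3 (ENSMUSG00000059898, chr18:19960930-20002097), the desmocollin of the lower layers, was at 350.4, 609, 549.7 and 714 CPM in MC903 libraries 1 to 4. In vehicle libraries 1 to 4 it was at 543, 513, 672 and 569 CPM. The vehicle values lay within the range of the MC903 values. The log2 fold change was -0.05 ± 0.22 (95% interval -0.52 to 0.43, adjusted p = 0.88, edgeR), and its sign changed when single libraries were left out.

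Within libraries, the log2 ratio of Dsc1 to Dsc3 averaged -2.82 ± 0.27 in MC903 skin and -4.60 ± 0.22 in vehicle skin (SD, n = 4 each). The difference was 1.79 (two-sided exact permutation test, p = 0.0286, adjusted p = 0.04). For Dsc2 to Dsc3 the ratio averaged -3.35 ± 0.36 in MC903 skin and -6.29 ± 0.43 in vehicle skin. That difference was 2.94 (two-sided exact permutation test, p = 0.0286, adjusted p = 0.04). The groups did not overlap in either ratio, and Dsc3 still held 76.9% ± 3.12 of the summed desmocollin RPKM in MC903 skin and 93.3% ± 0.85 in vehicle skin (SD, n = 4 each).

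Of the armadillo proteins, Pkp1 rose and Jup was not called. Pkp1 (ENSMUSG00000026413, chr1:135871395-135919207), plakophilin 1 of the upper epidermis, was at 801, 713, 811 and 697 CPM in MC903 libraries 1 to 4. In vehicle libraries 1 to 4 it was at 529, 415, 459.9 and 494 CPM. The groups did not overlap, and the log2 fold change was 0.67 ± 0.15 (adjusted p = 0.00515, edgeR). With library sizes alone in place of TMM it was 0.58 and not called (adjusted p = 0.0753), the highest adjusted p of its 19 alternatives, which went down to 6.59e-07. Pkp3, a plakophilin of all epidermal layers, also rose, to 206 ± 14.95 CPM in MC903 skin against 111 ± 11.2 CPM in vehicle skin (SD, n = 4 each; log2 fold change 0.90 ± 0.12, adjusted p = 0.000208, edgeR). The log2 ratio of Pkp1 to Pkp3 averaged 1.88 ± 0.10 in MC903 skin and 2.10 ± 0.22 in vehicle skin. The difference of -0.22 did not pass (two-sided exact permutation test, p = 0.143, adjusted p = 0.143), and the groups overlapped.

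Jup (ENSMUSG00000001552, chr11:100368958-100397763) encodes plakoglobin, which serves in adherens junctions as well as desmosomes. It was at 1409, 931, 1018 and 855 CPM in MC903 libraries 1 to 4 and at 1056, 609.8, 688 and 756 CPM in vehicle libraries 1 to 4. Replicate 1 was the highest library in both groups, and vehicle replicate 1 lay above 3 of the MC903 libraries. Jup had a log2 fold change of 0.44 ± 0.22 (95% interval -0.06 to 0.93, adjusted p = 0.139, edgeR), and 0.27 without MC903 replicate 1. Endothelial cells also use plakoglobin. The summed level of the 4 endothelial markers was 102 to 146 CPM in MC903 skin and 80.9 to 108 CPM in vehicle skin, and its part in Jup was not tested. The log2 ratio of Jup to its relative Ctnnb1, beta-catenin, averaged 2.33 ± 0.39 in MC903 skin and 1.70 ± 0.40 in vehicle skin (SD, n = 4 each). The difference of 0.63 did not pass (two-sided exact permutation test, p = 0.0857, adjusted p = 0.1).

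Dsp (ENSMUSG00000054889, chr13:38151328-38198577), desmoplakin, and Dsc3 were the members nearest to no difference. Dsp was the nearer in the edgeR fit, and Dsc3 with DESeq2 (-0.034, against 0.054 for Dsp). Dsp was at 1219.5, 1748, 1659 and 1611 CPM in MC903 libraries 1 to 4 and at 1467, 1424, 1645 and 1532 CPM in vehicle libraries 1 to 4. MC903 replicate 1 was below the vehicle range, and MC903 replicates 2 and 3 were above it. Dsp had a log2 fold change of 0.04 ± 0.17 (95% interval -0.34 to 0.42, adjusted p = 0.873, edgeR). Its sign turned under other scalings, while its interval excluded a change of 2-fold in either direction. The log2 ratio of Dsp to Cdh1, E-cadherin of the adherens junction, averaged 2.52 ± 0.17 in MC903 skin and 2.93 ± 0.13 in vehicle skin. It was lower in all 4 MC903 libraries than in any vehicle library, with a mean difference of -0.42 (two-sided exact permutation test, p = 0.0286, adjusted p = 0.04). The exact permutation p was 0.0571 without MC903 replicate 4 or without vehicle replicate 1.

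Cdsn (ENSMUSG00000039518, chr17:35552128-35557180), made by granular keratinocytes and lost in humans with a peeling skin disease, rose to become the most abundant member per length. It was at 1586, 1044, 1216 and 1099.5 CPM in MC903 libraries 1 to 4 and at 477, 328, 337 and 398 CPM in vehicle libraries 1 to 4. All MC903 libraries were above all vehicle libraries, and replicate 1 was the highest in both groups. The log2 fold change was 1.68 ± 0.20 (adjusted p = 7.31e-05, edgeR), or 3.21-fold, and it ran from 1.54 to 1.80 when single libraries were left out. Relative to Dsg1a plus Dsg1b counts, the log2 ratio of Cdsn averaged 1.37 ± 0.80 in MC903 skin and -0.76 ± 0.24 in vehicle skin (SD, n = 4 each). The difference was 2.13 (two-sided exact permutation test, p = 0.0286, adjusted p = 0.04), and 1.74 without MC903 replicate 1, the library with the highest ratio.

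The promoters of Cdsn, which rose, and Dsp, which was not called, are shown for contrast, as the 250 bases before the RefSeq start (build GRCm38.p6, plus strand), in lower case throughout because no searched motif was found. The Cdsn window is chr17:35551878-35552127 and the Dsp window chr13:38151044-38151293.
Cdsn: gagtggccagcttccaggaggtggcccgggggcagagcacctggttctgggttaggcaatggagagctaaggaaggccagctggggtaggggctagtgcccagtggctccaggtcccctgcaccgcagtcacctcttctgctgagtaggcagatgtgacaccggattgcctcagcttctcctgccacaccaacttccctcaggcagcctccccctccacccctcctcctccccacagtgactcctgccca
Dsp: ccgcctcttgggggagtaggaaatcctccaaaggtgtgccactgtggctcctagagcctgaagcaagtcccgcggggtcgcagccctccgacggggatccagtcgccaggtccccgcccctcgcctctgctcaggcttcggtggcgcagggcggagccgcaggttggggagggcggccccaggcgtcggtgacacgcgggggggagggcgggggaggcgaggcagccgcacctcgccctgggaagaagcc
The table also gave the promoter of Jup and a second, upstream start of Cdsn. All 4 windows were searched on both strands for AGGTCA, the half-site of the vitamin D receptor, TGANTCA, the AP-1 site, and AACCGG, part of the grainyhead-like site. None of the windows held any of these. Among 32851 windows of the same length in the table, 14.0% held AGGTCA, 6.75% TGANTCA and 5.62% AACCGG. The GC content was 64.0% in the Cdsn window and 72.4% in the Dsp window.

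**Figure D3:**
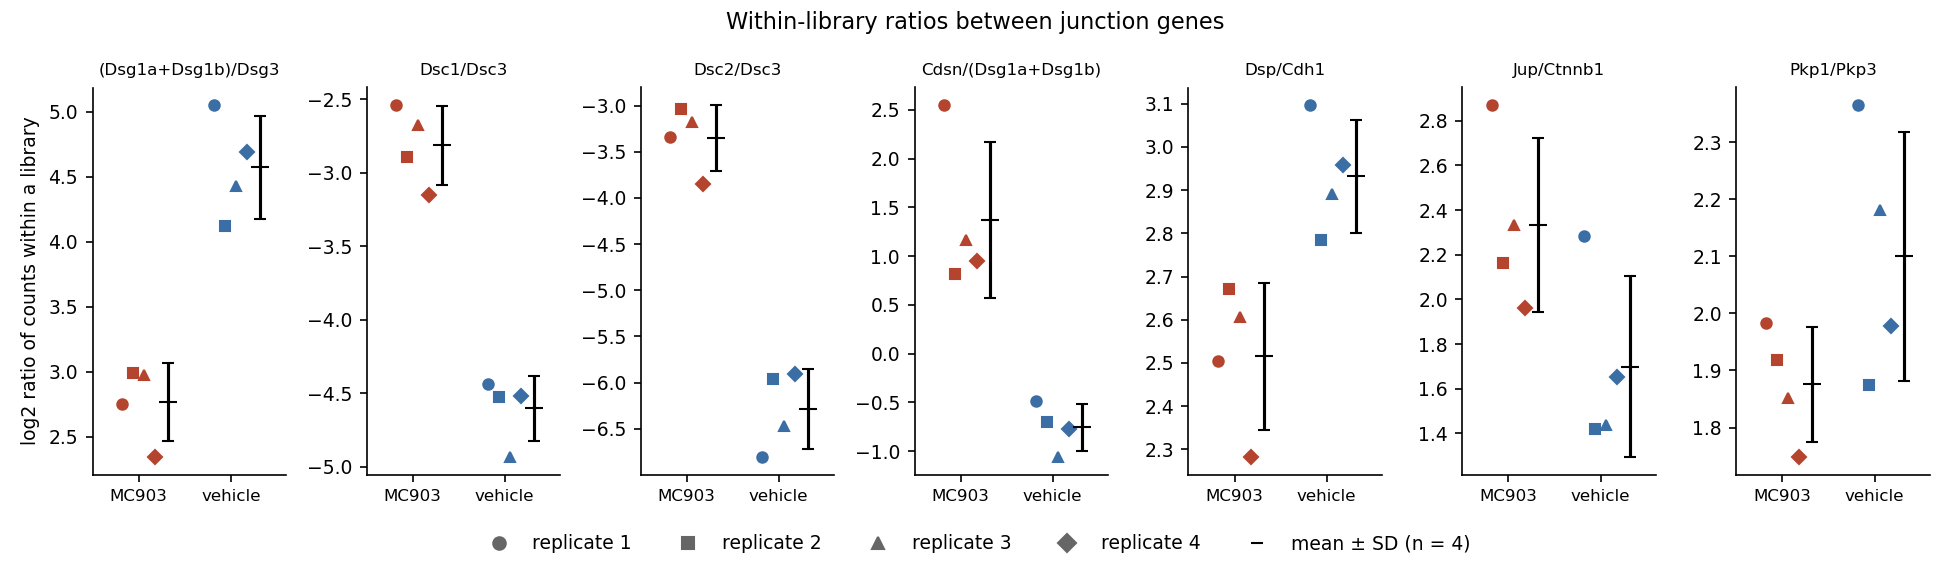
Within-library log2 ratios of counts for 7 gene pairs. Points are single libraries, with MC903 left of vehicle, and bars give mean ± SD (n = 4). The groups lie apart in the first 5 panels, from Dsg1a plus Dsg1b over Dsg3 (difference -1.81) to Dsp over Cdh1 (difference -0.42), and overlap for Jup over Ctnnb1 and Pkp1 over Pkp3.

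Levels per length placed the members in order, with the gene model as the length. That length was 6436 bases for Jup and 4108 for Dsg3, against 3205 and 6212 bases in their longest coding transcripts. The places of these genes in the order therefore depend on the length used. In MC903 skin Cdsn came first at 462 ± 90.9 RPKM (SD, n = 4), apart from Jup at 164 ± 38.3, Dsp at 162 ± 24.3 and Pkp1 at 150.3 ± 11.7 RPKM, whose ranges overlapped. Dsc3 at 105 ± 28.8 RPKM and Dsg1a at 71.8 ± 26.8 RPKM followed and overlapped each other. The highest Dsc3 library, at 134.7 RPKM, also reached into the ranges of Jup (from 132.8) and Dsp (from 126.7). Dsg1b at 21.4 ± 1.58, Dsc1 at 20.4 ± 3.05, Dsg3 at 17.99 ± 7.15 and Dsc2 at 10.4 ± 3.21 RPKM formed the lowest tier, in which each gene overlapped the next. In vehicle skin Dsp was first at 158 ± 9.99 RPKM, and from it down through Cdsn at 144 ± 25.6, Jup at 121 ± 30.3, Dsg1a at 108 ± 13.2, Dsc3 at 108 ± 13.01 and Pkp1 at 94.4 ± 9.66 RPKM each gene overlapped the next. Below a clear gap came Dsg1b at 7.698 ± 0.80, Dsg3 at 6.68 ± 1.36 and Dsc1 at 6.22 ± 0.43 RPKM, and Dsc2 stood alone at 1.42 ± 0.37 RPKM. The members with a vehicle level under 10 RPKM were Dsg1b, Dsg3, Dsc1 and Dsc2, and all 4 were called higher, as were Cdsn and Pkp1 from higher levels. The cut at 10 RPKM was not planned. How many of all genes under it were called was not counted, and a link between level and change was not tested.

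**Figure D4:**
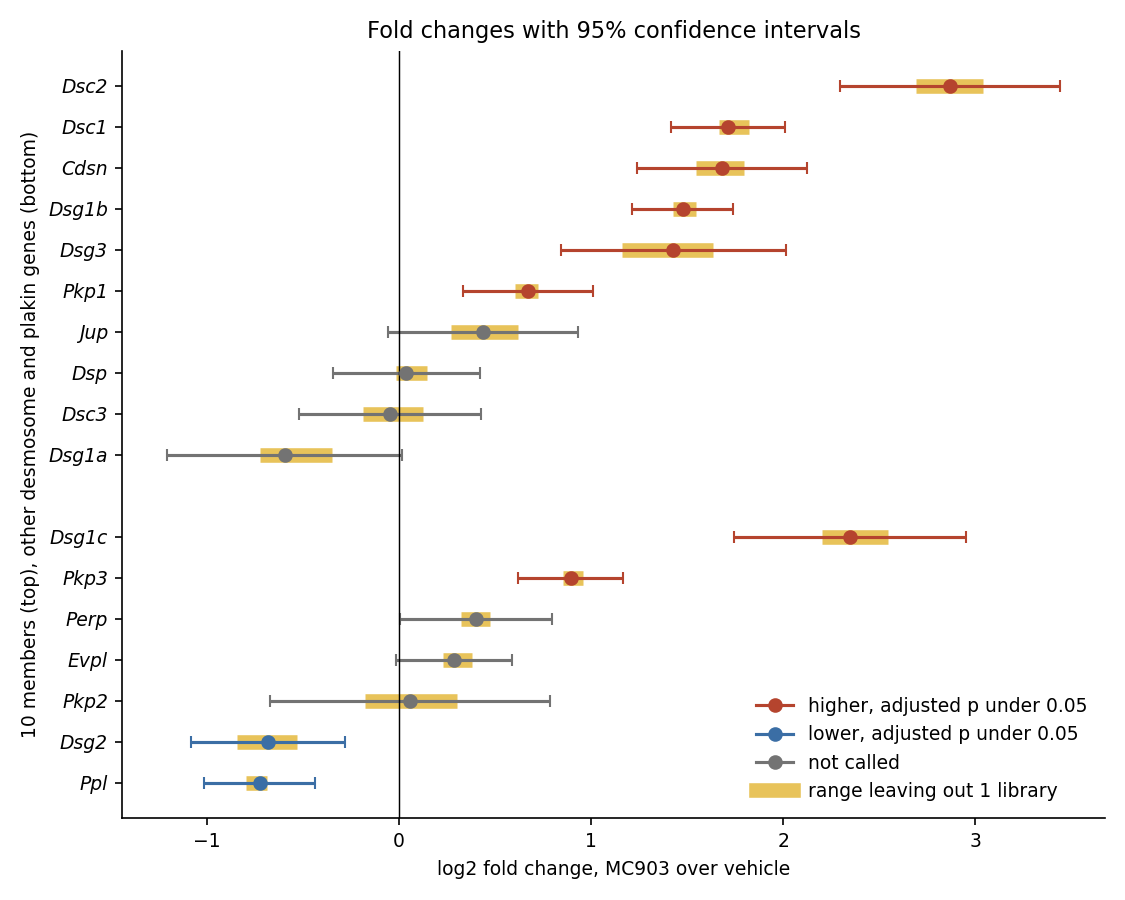
Log2 fold changes (MC903 over vehicle, horizontal axis) with 95% confidence intervals for the 10 members (top) and 7 other desmosome and plakin genes (bottom). Red points were called higher, blue lower and grey not called, and yellow bars give the range when 1 library is left out. Dsc2 is highest at 2.87, the interval of Dsg1a reaches from -1.21 to 0.02, and Ppl is lowest of all at -0.72.

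Of 8 other desmosome and plakin genes listed, 7 passed the filter. Among these, 2 rose (Dsg1c and Pkp3) and 2 fell (Dsg2 and Ppl), with a median log2 fold change of 0.29. Over all genes tested, 21.3% were called higher and 20.2% lower. Ppl, periplakin, a scaffold of the cornified envelope that also joins desmosomes to keratin, was at 157 ± 12.7 CPM in MC903 skin and 259 ± 24.3 CPM in vehicle skin (SD, n = 4 each; log2 fold change -0.72 ± 0.13, adjusted p = 0.00124, edgeR). Its partner envoplakin, Evpl, did not pass (0.29 ± 0.14, adjusted p = 0.113), nor did Perp, a desmosomal membrane protein (0.40 ± 0.18, adjusted p = 0.0962), or Pkp2 (0.06 ± 0.33, adjusted p = 0.904). DESeq2 called Perp higher (adjusted p = 0.00493, within a range of 0.00493 to 0.377 over its 19 alternatives).

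Adherens junction genes were higher in 4 of 9 cases and lower in none (median log2 fold change 0.32). The shares over all genes tested were 21.3% higher and 20.2% lower. P-cadherin, Cdh3, had the largest change, at 44.3 ± 3.77 CPM in MC903 skin and 20.9 ± 3.32 CPM in vehicle skin (SD, n = 4 each; 1.08 ± 0.14 log2, adjusted p = 0.000109, edgeR). Cdh1 (0.45 ± 0.16, adjusted p = 0.0391), Nectin1 (0.46 ± 0.17, adjusted p = 0.0471) and Nectin4 (0.46 ± 0.12, adjusted p = 0.00887) were the others. The call for Cdh1 was kept in 9 of 19 alternatives and that for Nectin1 in 7. Beta-catenin and the remaining members ranged from -0.27 to 0.32 and were not called.

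The list of proteases linked to corneodesmosome cleavage and of inhibitors had 4 of 7 tested members higher and none lower (median log2 fold change 0.37). Among all genes tested, 21.3% were called higher and 20.2% lower. The 4 were the proteases Klk7, Ctsl and St14 and the inhibitor Spink5. Klk7, a kallikrein that cleaves corneodesmosin, averaged 4049.8 ± 556 CPM in MC903 skin and 1051 ± 68.9 CPM in vehicle skin (SD, n = 4 each; 1.95 ± 0.18 log2, adjusted p = 1.43e-05, edgeR). Klk5, which acts on corneodesmosin and desmoglein 1, did not pass (0.04 ± 0.17, adjusted p = 0.863). Cathepsin L, Ctsl, rose by 1.34 ± 0.17 (adjusted p = 0.000109) and the serine protease St14 by 0.37 ± 0.13 (adjusted p = 0.0439). The call for St14 was kept in 7 of 19 alternatives. Spink5, whose product LEKTI inhibits the kallikreins, rose by 0.94 ± 0.20 (adjusted p = 0.00332).

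Of the 7 keratins listed that desmosomes anchor, 2 were higher and 2 lower, with a median log2 fold change of -0.27. These counts are not far from the shares over all genes tested, 21.3% higher and 20.2% lower. Krt1, the suprabasal type II keratin, rose to 1844 ± 361 CPM in MC903 skin against 202 ± 49.9 CPM in vehicle skin (SD, n = 4 each; 3.19 ± 0.23 log2, adjusted p = 2.75e-06, edgeR). Its partner Krt10 did not pass (-0.27 ± 0.27, adjusted p = 0.448). Krt14, the basal type I keratin, rose by 1.87 ± 0.19 (adjusted p = 2.71e-05), and its partner Krt5 did not pass (0.34 ± 0.16, adjusted p = 0.101). DESeq2 called Krt5 higher (adjusted p = 0.0023, the lowest over its 19 alternatives, which reached 0.402). Krt15 (-2.44 ± 0.31, adjusted p = 0.000114) and Krt77 (-2.50 ± 0.34, adjusted p = 0.000173) fell. Keratins have close relatives too. The windows they share were not counted, so how far shared reads affect the levels of single keratin genes is not known. The transcription factors of epidermal differentiation Trp63, Grhl1, Grhl3, Klf4 and Zfp750 were not called, with log2 fold changes from -0.34 for Trp63 to 0.36 for Zfp750. Of these 5, 0 had an unadjusted edgeR p under 0.05, and DESeq2 and limma-voom called 0.

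All samples were whole ear, so a change in the number of cells that make a transcript and a change in RNA per cell cannot be told apart. The summed level of the 5 basal keratinocyte markers was 8656 to 10400 CPM in MC903 skin and 5287 to 7582 CPM in vehicle skin. Within that list Krt14 was called higher, Krt15 and Col17a1 (log2 fold change -0.48) were called lower, and the median was -0.27. The 4 suprabasal markers summed to 10120 to 13318 CPM in MC903 skin and 9056 to 10442 CPM in vehicle skin, with Krt1 called higher, Sbsn called lower (-0.53) and a median of 0.04. The 3 granular markers measured, Lor, Flg2 and Hrnr, summed to 981 to 2020 CPM in MC903 skin and 1329 to 1826 CPM in vehicle skin. Flg2 was lower, at 73.1 ± 13.1 CPM in MC903 skin and 457 ± 43.2 CPM in vehicle skin (SD, n = 4 each; -2.64 ± 0.17 log2, adjusted p = 1.42e-06, edgeR), while Lor (-0.46) and Hrnr (0.64) were not called. The part of these cells in the level of Cdsn was not tested. The 10 hair follicle markers, whose cells carry desmosomes too, summed to 3.32 to 18.9 CPM in MC903 skin and 18.1 to 148 CPM in vehicle skin. The 148 CPM was vehicle replicate 4, and vehicle replicate 2 came next at 55.6 CPM. Of these markers 7 passed the filter, and all 7 were called lower. The 6 sebaceous markers summed to 914 to 2083 CPM in MC903 skin and 1232 to 2739 CPM in vehicle skin, and 3 were called lower. The 4 leukocyte markers summed to 245 to 404 CPM in MC903 skin and 133 to 198 CPM in vehicle skin, and 3 were called higher. The 4 skeletal muscle markers summed to 1162 to 3824 CPM in MC903 skin and 2293 to 7053 CPM in vehicle skin, and 2 were called lower. For all genes tested the shares were 21.3% higher and 20.2% lower. None of these markers was at 0 in every library, and their part in the members' values was not tested.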

How the data were processed

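Total RNA of 8 ear skin libraries, 4 MC903 and 4 vehicle, was depleted of ribosomal RNA and sequenced as single 50-base reads, per the labels' protocols. For each library the authors deposited whole-number read counts per Ensembl gene beside CPM and RPKM values. The submitters' processing notes name STAR 2.0.4b, Subread, featureCounts 1.4.5 and mm10. Which annotation release was used, whether strand was used and what became of reads with several matches is not given in the sources used here. Recalculation from the counts matched the deposited CPM within 2.33e-10 and the deposited RPKM within 5.82e-11, and neither was used further.

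Symbols were found for 40254 of 41388 identifiers, and Flg, which had none, was not analysed here. After filterByExpr and TMM scaling, group effects were tested by edgeR (version 4.0.16, R 4.3.3) with the quasi-likelihood method and no covariate, at an adjusted p threshold of 0.05. The SE is the log2 fold change over the square root of its F. Levels in CPM and RPKM carry the TMM factors. Ratios within a library were formed from counts plus 0.5 and compared with a two-sided exact permutation test, adjusted over 7 ratios. The floor of 3 counts was worth 0.171 to 0.2495 TMM-adjusted CPM, for counting error only. Between libraries of 1 group, chi-square per degree of freedom was at least 10.1, so none were duplicates.

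In counts simulated for MC903 against vehicle over 15655 genes, this test called 9 of 50 genes with a 1.5-fold change and 27 of 50 with 2-fold. It called 49 of 50 with 4-fold and 50 of 50 with 8-fold, and 7.53% of its calls were false. In the simulation no library was made to stand apart, and far fewer genes differed than were called in the data. Its rates need not hold for these data. The members and lists were chosen with earlier results of these data known. The text names all members and every called gene of the other lists, and 1 listed gene is not reported here. Alternatives were 3 other scalings, no filter and a stricter one (2 CPM or more in at least 4 libraries), DESeq2 1.42.0, limma-voom 3.58.1, a replicate block, Dsg1a and Dsg1b summed, and each library left out. Omitting both libraries that stood apart, and removing GC trends, were added after seeing the data.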

Additional observations from a re-analysis of the deposited data

Results flagged for a closer look

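In MC903 skin, Dsg1b was at 75.6 CPM in replicate 2, while the other 3 libraries of the group lay between 87.4 and 88.9 CPM, so this library was far from the others relative to the group's range. It was still above every vehicle library. Of 34 groups of 4 libraries examined in this way, for the 10 members and 7 ratios, 1 stood out, and chance alone flags about 1 in 20 such groups.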

How the results depend on the processing

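The calls for Dsg1b, Dsg3, Dsc1, Dsc2 and Cdsn held with the same direction under all 19 alternatives, with 1 exception: in the fit that sums Dsg1b with Dsg1a there is only the sum (-0.39), which was not called. With library sizes alone Pkp1 was 0.58 and not called. The number of members called lower was 0, and it was 1 (Dsg1a) with MC903 replicate 1 and vehicle replicate 2 both left out (-0.44) and with GC trends removed (-0.61). Dsc3 was 0.062 with both libraries left out and ran from -0.19 to 0.13 with single libraries left out. Dsp was -0.044 with library sizes alone, -0.036 with upper quartile factors, and ran from -0.013 to 0.15 with single libraries left out. The Dsp to Cdh1 ratio ran from -0.47 to -0.34 in that series. Jup was 0.16 with both libraries left out. For these changes the cause was not tested. Other scalings moved the median log2 fold change of all genes from -0.03 to at most -0.11.

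Among other genes, none of which was called, the sign turned for Pkp2 (-0.021 with upper quartile factors, -0.18 to 0.30 with single libraries left out), Ctnna1 (0.049 with both libraries left out, -0.16 to 0.033) and Cst6 (-0.14 to 0.14). It turned too for Klk5, at -0.040 with library sizes, -0.030 with upper quartile factors, -0.14 with both left out, and -0.14 to 0.12 with single libraries left out. Klf4 was -0.10 with library sizes, -0.065 with upper quartile factors, -0.0045 with no filter, -0.0016 with the stricter filter, -0.11 with both left out, and -0.12 to 0.19 with single libraries left out. Adherens junction genes called higher numbered 4, against 1 with library sizes and 2 in 7 other alternatives. Of the 5 transcription factors named, Zfp750 was called in 1 alternative (0.47, without MC903 replicate 1).

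No pairing by replicate number was seen. The deviations of same-numbered libraries correlated at 0.07, -0.14, -0.13 and -0.20, and no MC903 library correlated best with the vehicle library of its own number. These correlations cannot show whether the samples were paired when they were collected. With the replicate block 6 members were called higher and 0 lower, and over all genes 2973 were higher and 2732 lower, against 3423 and 3259 without it. The ratios could then reach no p below 0.125.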
